A study of Mus musculus with 10 samples.

Results

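The genes described here encode the activin subunits (Inhba, Inhbb), the activin-binding antagonists (Fst, Fstl3), the TGF-beta ligands (Tgfb1, Tgfb2, Tgfb3) and the TGF-beta receptors (Tgfbr1, Tgfbr2, Tgfbr3). They were chosen by symbol, 10 genes of 19937 with a probe set annotated to 1 symbol alone, and each was represented by 1 probe set. All 10 exceeded the intensity filter described with the processing and were tested with 16339 genes in all. They were measured in 10 clonal lines of 3T3-L1, a mouse embryonic fibroblast line that turns into fat cells when given insulin, dexamethasone and IBMX. Each line had been grown from a single colony and kept below confluence, and its class had been set by the triglyceride it stored after that cocktail. Low lines stored little: replicate 1 is clone 1E7, replicate 2 is 2D7, replicate 3 is 2F1, replicate 4 is 4D11 and replicate 5 is 4H4. High lines stored much: replicate 1 is 3F4, replicate 2 is 4D2, replicate 3 is 4E3, replicate 4 is 5C4 and replicate 5 is 5D4. No transgene, deletion or treatment is named for either class. RNA was taken from proliferating cells in serum before any cocktail was added, 1 array per line, so each class is 5 clones without technical repeats and the spread between lines holds clonal and technical variation together.

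Activins and TGF-betas are secreted dimers of one protein superfamily. Activin A is built from Inhba chains and activin B from Inhbb chains. Both ligand families bind pairs of type I and type II serine kinase receptors on the cell surface, and the activated type I receptor phosphorylates SMAD2 and SMAD3, which enter the nucleus with SMAD4 and change transcription. Follistatin (Fst) and follistatin-like 3 (Fstl3) trap activin outside the cell, and betaglycan (Tgfbr3) presents TGF-beta to the signalling receptors. In preadipocytes, TGF-beta and activin A are known as restraints on conversion into fat cells, and in fibroblasts TGF-beta is known as an inducer of matrix and contractile genes.

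Most markers of preadipocytes and fibroblasts were bright in these lines, while Cd34, at 6.94 in Low and 7.0 in High lines, and Zfp423, at 8.05 and 8.10, were dimmer. The preadipocyte factor Dlk1 had a mean log2 RMA intensity of 13.85 in Low and 13.81 in High lines and the fibroblast intermediate filament gene Vim 14.11 and 14.08. Of 6 macrophage and leukocyte genes, 3 lay below the intensity filter, Adgre1, Itgam and Ptprc, the last at 6.07 and 6.06. The other 3 passed it, Cd68 at 8.78 in Low and 8.92 in High lines, Lyz2 at 7.71 and 8.08, and Csf1r at 7.77 and 7.61. Lyz2 measured 8.90 in High replicate 1 and between 7.80 and 7.98 in the other High lines. Csf1r differed by -0.16 without overlap (limma unadjusted p = 0.0313, adjusted p = 0.574). Some fat cell and preadipocyte markers moved with the class, none past the limma adjusted threshold. Of 8 mature fat cell markers, the hormone genes Adipoq and Lep lay below the filter and the other 6 had positive High minus Low differences, Fabp4 by 1.22 (limma unadjusted p = 0.00181), Plin4 by 0.77 without overlap (unadjusted p = 0.00024) and Lpl by 0.21. The average log2 intensity per line of all 8, Adipoq and Lep included, ran from 7.93 to 8.05 in Low and from 8.0 to 8.41 in High lines. Of 11 preadipocyte and fibroblast markers, 8 were on the higher side in High lines. The other 3 were lower, Col1a1 by -0.09, Dlk1 by -0.04 and Vim by -0.03. At a limma unadjusted p under 0.05 there were 3, which is 27.3% of the list against 7.95% of all tested genes. These were Pparg at 0.62 without overlap (limma unadjusted p = 0.000149), Thy1 at 0.34 and Pdgfra at 0.33. The average log2 intensity per line of the 11 markers ran from 11.41 to 11.58 in Low and from 11.56 to 11.75 in High lines. The part of these markers in the values below was not tested. Of the marker lists of other cell types, the average log2 intensity per line ran from 7.04 to 7.19 in Low and 7.08 to 7.31 in High lines for 6 endothelial genes, and from 7.30 to 7.37 and 7.30 to 7.59 for 6 epithelial genes. For 6 macrophage and leukocyte genes it ran from 7.05 to 7.14 in Low and 7.12 to 7.35 in High lines, and for 6 skeletal muscle genes from 7.29 to 7.42 and 7.28 to 7.61. High replicate 4 held the upper end for the endothelial, epithelial and skeletal muscle genes. High replicate 1 held it for the macrophage and leukocyte genes. Each array is a bulk sample, so a smaller share of cells with a transcript and less of it per cell cannot be told apart.

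The differences of the 2 activin subunit genes between classes had opposite signs, each with an unadjusted p under 0.05 in the comparison described next, and the 250 bases before their RefSeq gene starts (build GRCm38.p6) are shown for that reason. Inhba lies at chr13:16011601-16011850 on the plus strand and Inhbb at chr1:119422249-119422498 on the minus strand, both written 5′ to 3′ along the gene. Capitals mark matches to any of the motifs searched on both strands.
Inhba: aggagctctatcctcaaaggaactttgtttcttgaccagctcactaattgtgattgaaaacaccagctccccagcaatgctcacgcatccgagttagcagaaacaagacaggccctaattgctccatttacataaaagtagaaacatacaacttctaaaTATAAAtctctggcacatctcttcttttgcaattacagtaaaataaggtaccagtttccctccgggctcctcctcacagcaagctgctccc
Inhbb: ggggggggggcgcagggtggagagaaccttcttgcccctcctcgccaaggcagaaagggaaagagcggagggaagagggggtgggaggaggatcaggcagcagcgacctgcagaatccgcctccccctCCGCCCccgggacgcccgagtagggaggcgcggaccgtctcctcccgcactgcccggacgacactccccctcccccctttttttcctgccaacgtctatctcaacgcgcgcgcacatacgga
The Inhba window had 43.2% G and C and held a TATA box (TATAAA) whose first base is at -91 from the gene start. The Inhbb window had 68.0% G and C and held a GC box (GGGCGG, here read on the other strand) starting at -122. Neither window held the SMAD element CAGAC, an AP-1 site (TGAGTCA or TGACTCA) or the cAMP response element TGACGTCA. Among 32851 RefSeq windows of the same length, 12.4% held the TATA box letters, 32.7% the GC box, 42.2% the SMAD element, 4.46% an AP-1 site and 1.55% the cAMP response element. These are matches of letters and say nothing of binding.

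Between classes, 0 of the 10 genes passed a limma adjusted p of 0.05, against 0.00612% of all tested genes (1 gene, no member). At an unadjusted p under 0.05 the limma fit held 3 of the 10, against 7.95% of all tested genes. Inhbb and Tgfbr3 were on the higher side in High lines, where 3.16% of all tested genes lay, and Inhba was on the lower side, where 4.79% lay. In 2 of the 10, Inhba and Tgfbr3, the 5 High and 5 Low values did not overlap, against 1.57% of all tested genes (0.526% with High lines above, 1.04% with High lines below). The median High minus Low difference of the 10 genes was 0.052 on the log2 scale, with 6 positive and 4 negative, and that of all tested genes was 0.021. The genes were chosen with earlier results of these data known, Inhba's difference among them, so these counts are a description.

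**Figure D1:**
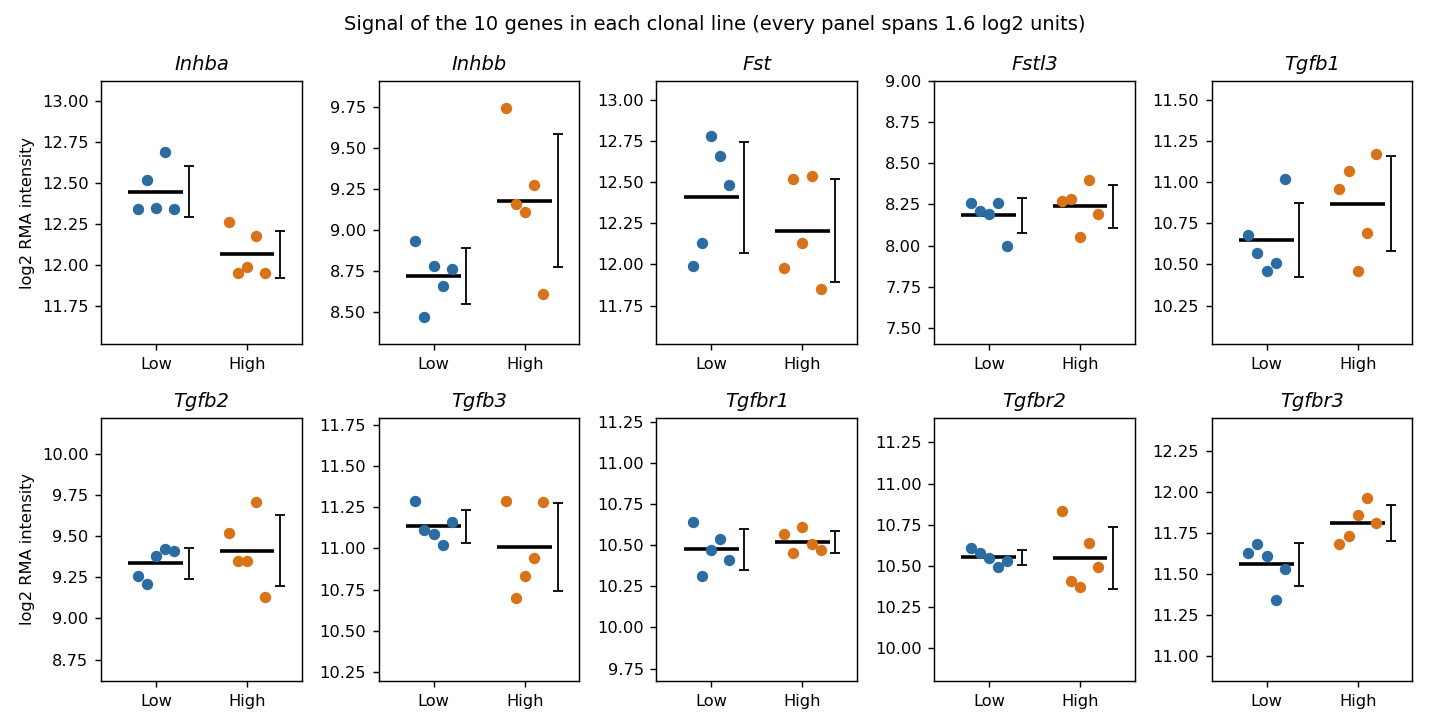
Log2 RMA intensity (y axis) of each of the 10 genes in the 5 Low (blue) and 5 High (orange) lines, with 1 point per line, a bar at the class mean and an error bar of 1 SD. Inhba has all High points below all Low points, Tgfbr3 has all High points above all Low points by a margin of 0.005, and the classes overlap in the other 8 panels.

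Inhba, the activin A subunit gene (Entrez gene 16323, probe set 10403743), had its brighter signals in Low lines. Its log2 intensity was 12.34, 12.52, 12.35, 12.69 and 12.34 in Low replicates 1 to 5 and 12.26, 11.95, 11.99, 12.18 and 11.95 in High replicates 1 to 5. The classes did not overlap, and the nearest lines, Low replicate 5 and High replicate 1, were 0.08 apart. The Low lines averaged 12.45 ± 0.15 and the High lines 12.07 ± 0.15 (SD, n = 5 per class). High lines were thus lower by a log2 difference of -0.38 (SE 0.09; 95% interval -0.58 to -0.19), a 1.30-fold step, with a limma unadjusted p of 0.0012 and an adjusted p of 0.277. It ranked as number 66 of the tested genes by p, and the exact permutation p over all assignments of the lines was 0.00794, the smallest that 5 against 5 can give. Inhba was chosen with this difference known, so its p values and rank are a description. Leaving out each line in turn gave differences from -0.43 to -0.32.

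Inhbb, the activin B subunit gene (probe set 10357155), went the other way in 4 of the 5 High lines and had the widest spread of the 10 genes. It measured 8.93, 8.47, 8.78, 8.66 and 8.76 in Low replicates 1 to 5 and 9.74, 9.16, 9.11, 9.27 and 8.61 in High replicates 1 to 5. High replicates 1 to 4 lay above every Low line, and High replicate 5 lay below all Low lines but replicate 2. Low lines averaged 8.72 ± 0.17 and High lines 9.18 ± 0.40 (SD, n = 5 per class), a log2 difference of 0.46 (95% interval 0.10 to 0.82), which is 1.37-fold. The limma unadjusted p was 0.0176, the adjusted p 0.507 and the exact permutation p 0.0397. With 1 line left out the difference ran from 0.32 without High replicate 1 (limma unadjusted p = 0.0371, adjusted p = 0.822) to 0.60 without High replicate 5 (unadjusted p = 0.000818, adjusted p = 0.15). The unadjusted p reached 0.0439 without Low replicate 2, and with a block for the first character of the clone's name the difference was 0.43 with an unadjusted p of 0.0712. From the dimmest to the brightest line the Inhbb signal spanned 2.41-fold, and its SD over the 10 lines, 0.38, stood at the 96.6th percentile of all tested genes.

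The activin antagonist Fst (probe set 10412260) varied between lines about as widely, without a split by class. Its log2 intensity was 11.99, 12.13, 12.78, 12.66 and 12.48 in Low replicates 1 to 5 and 11.98, 12.52, 12.13, 12.54 and 11.85 in High replicates 1 to 5. High replicates 5 and 1 were the dimmest, Low replicates 3 and 4 the brightest, and the classes overlapped. The difference was -0.20 (95% confidence interval -0.59 to 0.18, limma adjusted p = 0.801). Its SD over lines, 0.33, was at the 94.9th percentile of tested genes.

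Fstl3 (probe set 10364494), the other antagonist, stayed within a range of 0.40 log2 units over all lines. It ran from 8.0 to 8.26 in Low lines (median 8.21) and from 8.05 to 8.40 in High lines (median 8.27), and the difference was 0.06 (95% confidence interval -0.11 to 0.23, limma adjusted p = 0.855). Its SD over lines was 0.12, at the 31.6th percentile.

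The activin A subunit was also set against its antagonist within each array, as Inhba minus Fst, which shows unequal change and no ratio of proteins. This log2 difference was 0.35, 0.39, -0.43, 0.03 and -0.14 in Low replicates 1 to 5 and 0.29, -0.57, -0.14, -0.36 and 0.10 in High replicates 1 to 5. Both classes held lines on either side of 0. The class means were 0.04 ± 0.34 and -0.14 ± 0.35 (SD, n = 5 each), and they lay -0.18 apart, less than the scatter of lines inside a class (exact permutation p = 0.413). Inhba separated the classes and its margin over Fst did not.

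**Figure D2:**
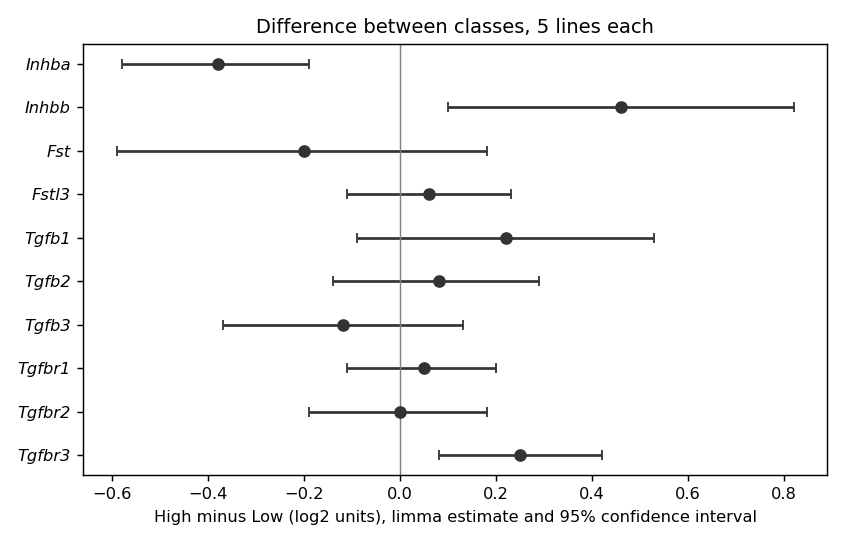
High minus Low difference in log2 units (x axis) of the 10 genes, as limma estimates with 95% confidence intervals from 5 lines per class. The intervals of Inhba (-0.58 to -0.19), Inhbb (0.10 to 0.82) and Tgfbr3 (0.08 to 0.42) lie on 1 side of 0 and the other 7 include 0; none passed the adjusted threshold.

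The TGF-beta ligand genes overlapped between classes in every case. Tgfb1 (probe set 10551185), the isoform most studied in fibrosis, measured 10.68, 10.57, 10.46, 10.51 and 11.02 in Low replicates 1 to 5 and 10.96, 11.07, 10.46, 10.69 and 11.17 in High replicates 1 to 5. High replicates 5 and 2 were the brightest, but High replicate 3 matched the dimmest Low line to 2 decimals. The difference was 0.22 (95% confidence interval -0.09 to 0.53, limma adjusted p = 0.751). With 1 line left out the Tgfb1 difference ran from 0.15 to 0.32, with a limma unadjusted p from 0.0275 to 0.317. With a block for the first character of the clone's name, a fit whose class difference rests on the 2 Low and 2 High lines named with 4, it was 0.00.

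Tgfb2 (probe set 10360920) ran from 9.21 to 9.42 in Low lines (median 9.38) and from 9.13 to 9.71 in High lines (median 9.35). High lines held both ends of the range, High replicate 4 at 9.71 and High replicate 5 at 9.13. The difference was 0.08 (95% confidence interval -0.14 to 0.29, limma adjusted p = 0.852).

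Tgfb3 (probe set 10401673) measured 11.29, 11.11, 11.09, 11.02 and 11.16 in Low replicates 1 to 5 and 11.29, 10.70, 10.83, 10.94 and 11.28 in High replicates 1 to 5. High replicates 2, 3 and 4 lay below every Low line, while High replicates 1 and 5 lay at the top of the Low range. The difference was -0.12 (95% confidence interval -0.37 to 0.13, limma adjusted p = 0.808). Tgfb3 lies on chromosome 12, where the median of its 50 nearest tested genes differed between the classes by -0.13. With that median subtracted in each array, the Tgfb3 difference was 0.00, whereas with a block for the first character of the clone's name it was -0.32 (limma unadjusted p = 0.0485, adjusted p = 1.0). For the other 9 genes the nearest 50 differed by between -0.02 and 0.04.

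Of the receptors, the coreceptor gene Tgfbr3 (betaglycan, probe set 10532085) had higher values in High lines without passing the adjusted threshold, and the intervals of both kinase genes included 0. Tgfbr3 measured 11.63, 11.68, 11.61, 11.34 and 11.53 in Low replicates 1 to 5 and 11.68, 11.73, 11.86, 11.96 and 11.81 in High replicates 1 to 5. All High lines were above all Low lines, though High replicate 1 exceeded Low replicate 2 by no more than 0.005. Low lines averaged 11.56 ± 0.13 and High lines 11.81 ± 0.11 (SD, n = 5 per class). The log2 difference, 0.25 (95% interval 0.08 to 0.42; 1.19-fold), carried a limma unadjusted p of 0.00758, an adjusted p of 0.42 and an exact permutation p of 0.00794. It ran from 0.20 to 0.28 with 1 line left out.

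Tgfbr1, the type I kinase (probe set 10504817), ran from 10.31 to 10.64 in Low lines (median 10.47) and from 10.45 to 10.61 in High lines (median 10.51). Its difference was 0.05 (95% confidence interval -0.11 to 0.20, limma adjusted p = 0.868), and its SD over lines of 0.10 was at the 18.6th percentile of tested genes. Tgfbr2, the type II kinase (probe set 10597518), ran from 10.49 to 10.61 in Low lines (median 10.55) and from 10.37 to 10.83 in High lines (median 10.49). The class means were equal to 2 decimals at 10.55, and the interval of the difference was -0.19 to 0.18 (limma adjusted p = 0.996). The spread was wider among High lines (SD 0.19) than among Low lines (SD 0.04), a contrast that was not tested. High replicate 1 was the brightest line and High replicate 3 the dimmest. These intervals leave room for differences of up to about 0.20 in either gene.

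**Figure D3:**
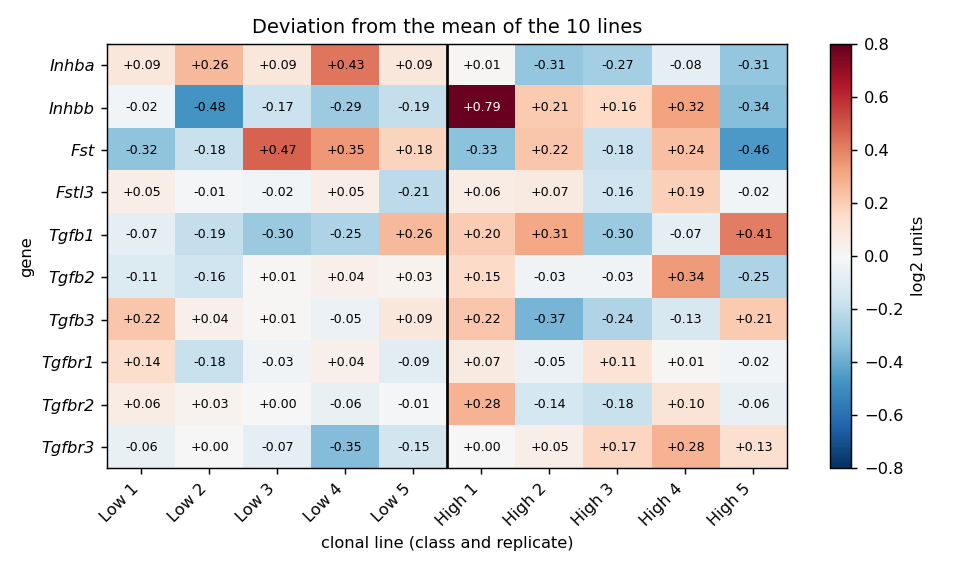
Deviation of each gene (rows) from its own mean over the 10 lines (columns, Low left of the black line and High right of it), in log2 units, with the value written in each cell. Inhba is above its mean in all Low lines, Inhbb is below its mean in all Low lines and in High replicate 5, and Inhbb in High replicate 1 (0.79) is the highest value plotted.

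The lines differed in which gene set them apart. High replicate 5 (clone 5D4) was the dimmest line for Inhba, Fst and Tgfb2 and the brightest for Tgfb1, with deviations from the 10-line mean of -0.31, -0.46, -0.25 and 0.41. High replicate 4 (clone 5C4) was the brightest for Fstl3, Tgfb2 and Tgfbr3, and High replicate 1 (clone 3F4) for Inhbb and Tgfbr2. Low replicate 4 (clone 4D11) was the brightest for Inhba, at 0.43 above the mean, and the dimmest for Tgfbr3, at -0.35. Averaged over the 10 genes, the absolute deviation ran from 0.11 in Low replicate 1 to 0.22 in High replicate 5, and over all tested genes from 0.10 to 0.18. High replicate 4 had the highest value over all tested genes, while its value over these genes was 0.17.

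Over the 10 lines, 45 pairs of these genes were compared and 0 correlations passed a Benjamini-Hochberg adjusted permutation p of 0.05. Inhba and Tgfbr3 both separated the classes, so no pooled coefficient is given for them, and their deviations from the class means had r = -0.39 as a description. Inhbb and Tgfb2 had Pearson r = 0.64 (permutation p = 0.0483, adjusted p = 0.801) and Spearman rho = 0.59 (permutation p = 0.0804, adjusted p = 0.724). Without High replicates 1 and 4, the lines farthest from the Inhbb median, r was 0.37. On deviations from the class means over all 10 lines r was 0.65, as a description. Fst and Tgfb3 had r = -0.52 (permutation p = 0.122, adjusted p = 0.859) and rho = -0.65 (permutation p = 0.049, adjusted p = 0.724), and r was -0.54 without Low replicate 3 and High replicate 5.

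Among 3045 other tested protein-coding genes with an SD over lines of at least 0.2, the patterns most like that of Inhba belonged to the cell polarity gene Pard3 (Pearson r = 0.97 over 10 lines), Mon1b (0.94) and Zcchc14 (0.94). These 3 genes lie on chromosome 8 and Inhba on chromosome 13, and their coefficients were computed without subtracting neighbouring genes. Their High minus Low differences were -0.38, -0.31 and -0.34, so these coefficients hold the class difference, and on deviations from the class means they were 0.90, 0.82 and 0.80. The most opposite patterns were those of Stx3 (-0.87, on those deviations -0.79) and Ccdc74a (-0.86 and -0.68). For Inhbb the closest were C1rl (0.92), the axon guidance gene Slit3 (0.91) and Cfap100 (0.90), and the most opposite were the MAP kinase phosphatase gene Dusp6 and Frrs1 (-0.93 each), and these 5 ran from 0.84 to 0.90 and at -0.88 on deviations from the class means. These coefficients were picked as the extremes of a search and are given as descriptions.

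The rest of the pathway was read from 5 lists of 93 tested genes, of which 0 passed the limma adjusted threshold. At an unadjusted p under 0.05 there were 3 on the higher and 8 on the lower side in High lines, 11.8% of the lists against 7.95% of all tested genes. The median difference over the lists was 0.006. The lists were chosen with earlier results of these data known, so these counts are a description. With arrays centred on their medians, the count on the lower side was 5 in place of 8.

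**Figure D4:**
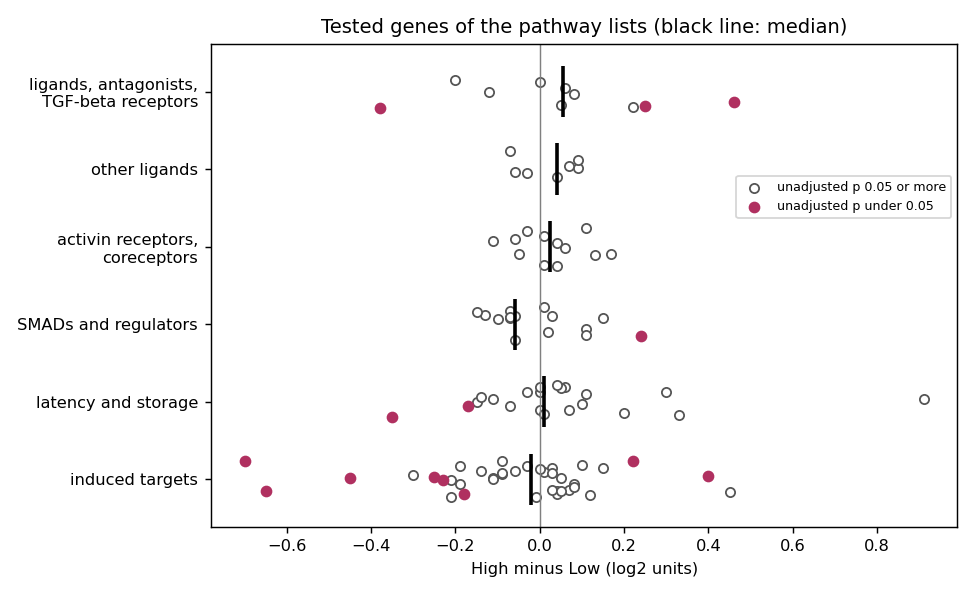
High minus Low difference in log2 units (x axis) of every tested gene in the 10-gene set and the 5 pathway lists (rows), 1 point per gene, filled where the limma unadjusted p is under 0.05, with a black line at each median. The medians lie between -0.06 and 0.052, and 8 of the 11 filled points of the 5 lists are in the row of induced targets.

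Of 11 other ligands of the SMAD2 and SMAD3 branch, 7 were tested, and their differences ran from -0.07 to 0.09 with 0 at a limma unadjusted p under 0.05. Without High replicate 4 there were 2, Inhbe at -0.14 (limma adjusted p = 0.584) and Gdf3 at -0.17 (adjusted p = 0.577). Both were dim, Inhbe at 6.74 in Low and 6.67 in High lines and Gdf3 at 7.25 and 7.18. The array medians ran from 7.74 to 7.84, and Inhbc, Nodal and Lefty1 also lay below them. Mstn (myostatin) and Lefty2 lay below the intensity filter, and Gdf1 and Gdf15 were not analysed here. Inha, the subunit that pairs with activin chains to form inhibins, averaged 9.24 ± 0.11 over Low lines and 9.21 ± 0.15 over High lines (SD, n = 5 per class). Of 13 activin receptors, coreceptors and receptor regulators, 12 were tested and 0 had an unadjusted p under 0.05, with a median of 0.026. The activin type II receptor genes Acvr2a and Acvr2b differed by 0.13 (limma adjusted p = 0.794) and 0.04 (adjusted p = 0.905), and the type I receptor gene Acvr1b by -0.06 (adjusted p = 0.875). Acvr1c, which encodes the type I receptor ALK7, lay below the filter at 6.09 in Low and 6.18 in High lines.

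All 15 genes for SMADs and their regulators were tested, with a median of -0.06. Smurf1, a ubiquitin ligase that targets SMADs and their receptors, was the 1 with an unadjusted p under 0.05. It measured 11.25, 11.74, 11.50, 11.47 and 11.59 in Low replicates 1 to 5 and 11.69, 11.91, 11.80, 11.66 and 11.70 in High replicates 1 to 5, a difference of 0.24 (limma unadjusted p = 0.0181, adjusted p = 0.511). Low replicate 2 lay within the High range. With neighbouring genes subtracted the Smurf1 difference was 0.15 (unadjusted p = 0.0585) and the count for this list 0, and without High replicate 5 the count was 2. The feedback inhibitor genes Smad7 and Skil, both induced by the pathway, differed by 0.01 (limma adjusted p = 0.977) and -0.13 (adjusted p = 0.788).

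Of 23 genes for latency, activation and matrix storage of TGF-beta, 21 were tested, with a median of 0.007. Ltbp4, a latent TGF-beta binding protein gene, differed by -0.35 (limma unadjusted p = 0.0446, adjusted p = 0.608) and Furin, whose product cleaves TGF-beta and activin precursors, by -0.17 (unadjusted p = 0.0425, adjusted p = 0.601). Ltbp4 measured 8.67, 9.39, 9.25, 9.65 and 8.97 in Low replicates 1 to 5 and between 8.60 and 8.96 in High lines, so Low replicate 1 lay inside the High range. The count of 2 at this p was 0 with repeated quantile normalization and without Low replicate 4, High replicate 1 or High replicate 3. It was 1 with centred arrays, with array weights, with the clone name block and without Low replicate 2, Low replicate 3 or High replicate 2.

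Of 40 genes known to be induced by TGF-beta or activin in fibroblasts, 38 were tested. They had a median of -0.022, with 2 on the higher and 6 on the lower side at an unadjusted p under 0.05, 21.1% of the list against 7.95% of all tested genes (3.16% higher, 4.79% lower). With a block for the first character of the clone's name the count was 5 in place of 8. The list was chosen with earlier results of these data known, so its share is a description. Tagln, the actin-binding transgelin gene, measured 11.59, 11.60, 11.75, 11.27 and 11.47 in Low replicates 1 to 5 and 10.38, 10.82, 11.18, 10.49 and 11.32 in High replicates 1 to 5. Its difference was -0.70 (limma unadjusted p = 0.00147, adjusted p = 0.277), and High replicate 5 lay above Low replicate 4. Ccn2, the connective tissue growth factor gene, measured 11.30, 12.06, 12.37, 12.66 and 12.12 in Low replicates 1 to 5 and 11.27, 11.61, 11.32, 11.58 and 11.49 in High replicates 1 to 5. Its difference was -0.65 (limma unadjusted p = 0.00697, adjusted p = 0.417), with Low replicate 1 as dim as the High lines.

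Among these targets the classes did not overlap for Tgfb1i1 and Tpm1, which makes 2 of the 93 tested genes of the 5 lists, against 1.57% of all tested genes. Tgfb1i1, which encodes the focal adhesion protein Hic-5, ran from 12.63 to 12.92 in Low and from 12.38 to 12.58 in High lines, a difference of -0.25 (limma adjusted p = 0.364). The tropomyosin gene Tpm1 ran from 13.21 to 13.33 and from 12.87 to 13.12, a difference of -0.23 (adjusted p = 0.378). On the higher side were the transcription factor genes Snai2 (0.22, limma adjusted p = 0.439) and Bhlhe40 (0.40, adjusted p = 0.515). The smooth muscle actin gene Acta2 differed by -0.09 (limma adjusted p = 0.728), Pmepa1 by -0.21 (adjusted p = 0.678) and the secreted matrix protein gene Tgfbi by 0.45 (adjusted p = 0.724). Of the 7 myofibroblast and smooth muscle markers, 3 of which are also in the target list, the average log2 intensity per line ran from 9.47 to 9.76 in Low and from 9.42 to 9.62 in High lines. Of these 7, 3 had positive and 4 negative differences. At a limma unadjusted p under 0.05, 0 were on the higher side and 2 on the lower, where 4.79% of all tested genes lay. These 2 were Tagln and the smoothelin gene Smtn, which differed by -0.19 without overlap (limma unadjusted p = 0.0301, adjusted p = 0.568). The positive differences were those of Des at 0.28, Myocd at 0.11 and Myh11 at 0.06. The part of the 7 markers in the values of the target list was not tested.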

How the data were processed

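Biotin-labelled cDNA made from the total RNA of 10 clonal lines was read on arrays, 1 per line, per the labels' protocols. The authors deposited log2 intensities made with RMA, per the submitters' processing notes, its version and settings not given in the sources used here. RMA gives all arrays nearly the same distribution, which would hide a shift common to most genes. Array medians ran from 7.74 to 7.84, and the number of lines limits the precision.

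Of 34760 probe sets, 21640 carried 1 symbol in the platform annotation, 1321 several and 11799 none; the brightest probe set per symbol was kept. A gene was tested when it exceeded its array's 25th percentile in at least 5 arrays (16339 genes). The class difference, High minus Low, was fitted by limma 3.58.1 (lmFit, eBayes; R 4.3.3), two-sided, with Benjamini-Hochberg adjustment over all tested genes, and the fit was tested on simulated data. Exact permutation tests were two-sided over all assignments of 5 and 5 lines; correlations used 100000 permutations. Named genes are the 10 members, up to 4 genes per direction and list at an unadjusted p under 0.05, a fixed set of receptors and targets, and the closest patterns to Inhba and to the gene with the widest spread. Members and lists were chosen with earlier results of these data known. Promoter windows came from RefSeq (GRCm38.p6) for 7 of the 10 genes. Python 3.11.15, pandas 2.3.3, numpy 2.4.6 and matplotlib 3.10.9 were used.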

Additional observations from a re-analysis of the deposited data

Results flagged for a closer look

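The values of named genes, in the sense given with the processing, were searched for a line far from the other 4 of its class. Cell type markers that are in no pathway list were outside this search. Among those, Smtn measured 10.95 in Low replicate 4, against 10.58 to 10.67 in the other Low lines. Lyz2 measured 8.90 in High replicate 1, against 7.80 to 7.98 in the other High lines. These are examples, and such lines were not counted among the markers. Of the 58 sets of 5 values that were searched, 1 had such a line, where about 2.9 arise by chance. Fstl3 measured 8.0 in Low replicate 5, against 8.19 to 8.26 in the other Low lines, a gap of 0.715 of the class range.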

How the results depend on the processing

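Of the 19 alternatives run for the 10 genes, 0 brought any of them past the limma adjusted threshold, and Inhba, Inhbb, Fst, Fstl3, Tgfbr1 and Tgfbr3 kept their sign in all. The Tgfb1 difference was 0.00 with a block for the first character of the clone's name and positive in the others. At an unadjusted p under 0.05, Inhba and Tgfbr3 stayed in 19 of 19 and Inhbb in 18, while Tgfb1 came under it in 2 and Tgfb3 in 1. With a block for the first character of the clone's name the counts were 1 higher and 2 lower (Tgfb3, at -0.32, joined Inhba), and 5 pathway genes lower; that fit rests on 4 lines. Tgfb2 was -0.07 there, and between 0.00 and 0.15 with 1 line left out. Tgfb3 was 0.00 with neighbouring genes subtracted, and pathway genes on the higher side were then 1. Tgfbr2 was 0.02 with centred arrays and with repeated quantile normalization, and between -0.07 and 0.04 with 1 line left out. Centred arrays gave 5 pathway genes lower. Leaving out 1 line gave 2 to 3 members higher and 1 lower, 2 to 5 pathway genes higher (5 without High replicate 2) and 5 to 10 lower (5 without Low replicate 4), 2 to 3 members without overlap, and Inhba minus Fst from -0.30 to -0.07 (exact permutation p 0.198 to 0.722 over all its alternatives). No paired analysis was possible because the labels give no replicate numbers that pair Low with High lines. Of the pathway lists, 4 genes below the intensity filter were not tested.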
